A study of Mus musculus with 96 samples.

Results

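The expression of 10 genes of the actin machinery was followed in single EL4 cells with and without an shRNA against Ctcf. They were the rows of the deposited TPM table with the symbols Actb, Actg1, Pfn1, Cfl1, Tmsb4x, Tmsb10, Cap1, Arpc2, Coro1a and Lcp1, which is 10 of 24057 rows. The set was chosen by the TPM values of Pfn1, which were already known to be higher in both knockdown cultures, and the other 9 were added as actin genes and abundant actin-binding genes. EL4 is a mouse T lymphoma line of strain C57BL/6, given as C57BL/6 N in the study's methods. Control cells (WT) carried an shRNA against luciferase (shLuc) and CTCF-KD cells carried an shRNA against Ctcf (shCTCF), both delivered by viral infection, after which GFP+ cells were sorted. There were 2 hairpins against Ctcf, and which of them each culture carried is not given in the sources used here. Each condition had 2 cultures, and 24 cells of each culture were sequenced after capture on the Fluidigm C1, a microfluidic system that isolates single cells. Experiment 1 held shLuc #1 and shCTCF #1, and experiment 2, the second knockdown, held shLuc #2 and shCTCF #2. Every culture had a capture circuit of its own, so circuit and culture cannot be told apart.

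Of the 96 cells, 95 had at least 3000 genes and were kept, which left 24 and 23 cells in shLuc #1 and #2 and 24 in each of shCTCF #1 and #2. They held 41591 to 405404 reads per cell, and the median number of genes detected was 4771, 4635, 6172.5 and 5656 in the same order. The mean level of Ctcf, the target of the knockdown, was 60.3 ± 76.8 TPM (SD over cells) in shLuc #1 and 16 ± 27.4 TPM in shCTCF #1. It was 37.1 ± 45.5 TPM in shLuc #2 and 44.9 ± 50.0 TPM in the culture labelled shCTCF #2. These 2 means have SEs over cells of 9.49 and 10.2 TPM and rest on 394 and 265 reads. A lower level was thus not seen in experiment 2, and no difference in either direction is read from it. The study's methods state that populations in which knockdown was efficient were taken for sequencing. CTCF-KD is used as the label of both cultures. All 10 T cell markers examined were detected, with summed means of 6478 to 8474 TPM per culture, while the B cell marker Cd79a had culture means of at most 4.13 TPM and Cd79b, Ms4a1 and Pax5 were at 0 in all cells. Of 5 myeloid markers 4 were detected, with sums of 40.5 to 52.1 TPM and Lyz2 at 0, and fibroblast markers summed to at most 2.18 TPM.

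Actin monomers assemble into filaments that give a lymphocyte its shape, its motility and its contact with other cells. Profilin (Pfn1) delivers monomers to growing filament ends, the beta-thymosins (Tmsb4x, Tmsb10) hold monomers in reserve, and cofilin (Cfl1) severs and dismantles old filaments, helped by Cap1, which also recycles monomers. The Arp2/3 complex, of which Arpc2 is a subunit, starts branches on existing filaments. Coronin 1A (Coro1a) binds filaments and the Arp2/3 complex in blood cells, and L-plastin (Lcp1) bundles filaments in leukocytes.

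Among the 10 genes, 2 pairs are close relatives, and their coding sequences show how far reads can separate them. Beta-actin (Actb, chr5:142903115-142906754, minus strand, GRCm38) and gamma-actin (Actg1, chr11:120345690-120348542, minus strand) differed at 128 of 1128 coding bases, an identity of 88.7%. The first 60 coding bases of each follow, 5′ to 3′ from the GENCODE M21 transcripts, with the 9 bases that differ in capitals.
Actb: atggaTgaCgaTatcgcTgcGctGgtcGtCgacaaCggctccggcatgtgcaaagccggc
Actg1: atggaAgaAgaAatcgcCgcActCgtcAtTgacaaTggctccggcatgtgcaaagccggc
The beta-thymosins Tmsb4x (chrX:167207093-167209315, minus strand) and Tmsb10 (chr6:72957347-72958748, minus strand) differed at 40 of 135 coding bases, shown whole in the same way.
Tmsb4x: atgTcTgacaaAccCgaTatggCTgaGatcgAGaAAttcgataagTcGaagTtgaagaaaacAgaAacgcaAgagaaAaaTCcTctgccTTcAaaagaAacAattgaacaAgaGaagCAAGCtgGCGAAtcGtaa
Tmsb10: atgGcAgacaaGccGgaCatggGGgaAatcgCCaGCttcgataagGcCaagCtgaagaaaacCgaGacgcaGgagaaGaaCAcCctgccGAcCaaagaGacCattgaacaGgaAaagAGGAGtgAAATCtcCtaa
Of the 50-base windows of the chosen transcript, 14.2% in Actb, 56.7% in Actg1 and 43.5% in Tmsb10 also occurred in annotated transcripts of other genes, while Tmsb4x and Pfn1 shared 0 of 719 and 0 of 812. Because the authors kept uniquely mapped reads, the levels of Actg1 and Tmsb10 are uncertain. Tmsb4x was listed at 0 in all 95 cells, and no comparison could be made for it. Why it was at 0 was not tested, and the 0 is not read as absence of its mRNA.

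The remaining members are Pfn1 (chr11:70651850-70654644, minus strand), Cfl1 (chr19:5490455-5495201, plus strand), Coro1a (chr7:126699773-126707787, minus strand), Lcp1 (chr14:75131101-75230842, plus strand), Arpc2 (chr1:74236084-74268209, plus strand) and Cap1 (chr4:122859047-122886056, minus strand). Cfl1, Coro1a and Cap1 overlap Snx32, Bola2 and Ppt1 on the opposite strand, and since no strand setting is given for the counting, reads in those overlaps cannot be assigned. The set of RefSeq promoters used here (GRCm38.p6) held 13 promoters for 9 of the 10 genes. It had no entry for Actb, so the Actb promoter was not searched. In the 250 bases upstream of each start, searched on both strands, a CArG box, the site bound by serum response factor in many actin genes, was matched in 1 of the 13, that of Actg1, against 1.47% of all 32851 promoters. It starts 90 bases upstream. The 30 bases shown lie at chr11:120348566-120348595 (minus strand), and the box within them is in capitals.
Actg1 promoter: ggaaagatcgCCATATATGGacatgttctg

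The levels of the 9 detected genes spanned more than 2 orders of magnitude. Actb was the second most abundant of all genes, with a mean of 11120 TPM over the 95 cells, or 1.11% of all TPM. It was followed by Pfn1 (2013 TPM, rank 49), Cfl1 (1547 TPM, rank 68), Coro1a (803 TPM), Arpc2 (623 TPM), Lcp1 (322 TPM), Tmsb10 (159 TPM), Actg1 (61.9 TPM) and Cap1 (34.8 TPM). Since only uniquely mapped reads were used, the places of Tmsb10 and Actg1 in this order are uncertain. Only Actb stood above its neighbour by more than the SD over cells in all 4 cultures. Pfn1 and Cfl1, and likewise Actg1 and Cap1, kept their order in all 4 cultures but differed by less than the SD over cells in each of them. Coro1a was above Arpc2 in 2 of 4 cultures, those labelled CTCF-KD. Actb, Pfn1 and Cfl1 were detected in all 95 cells, Arpc2 and Actg1 in 94, Tmsb10 in 93, Lcp1 in 91, Coro1a in 90 and Cap1 in 74.

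**Figure D1:**
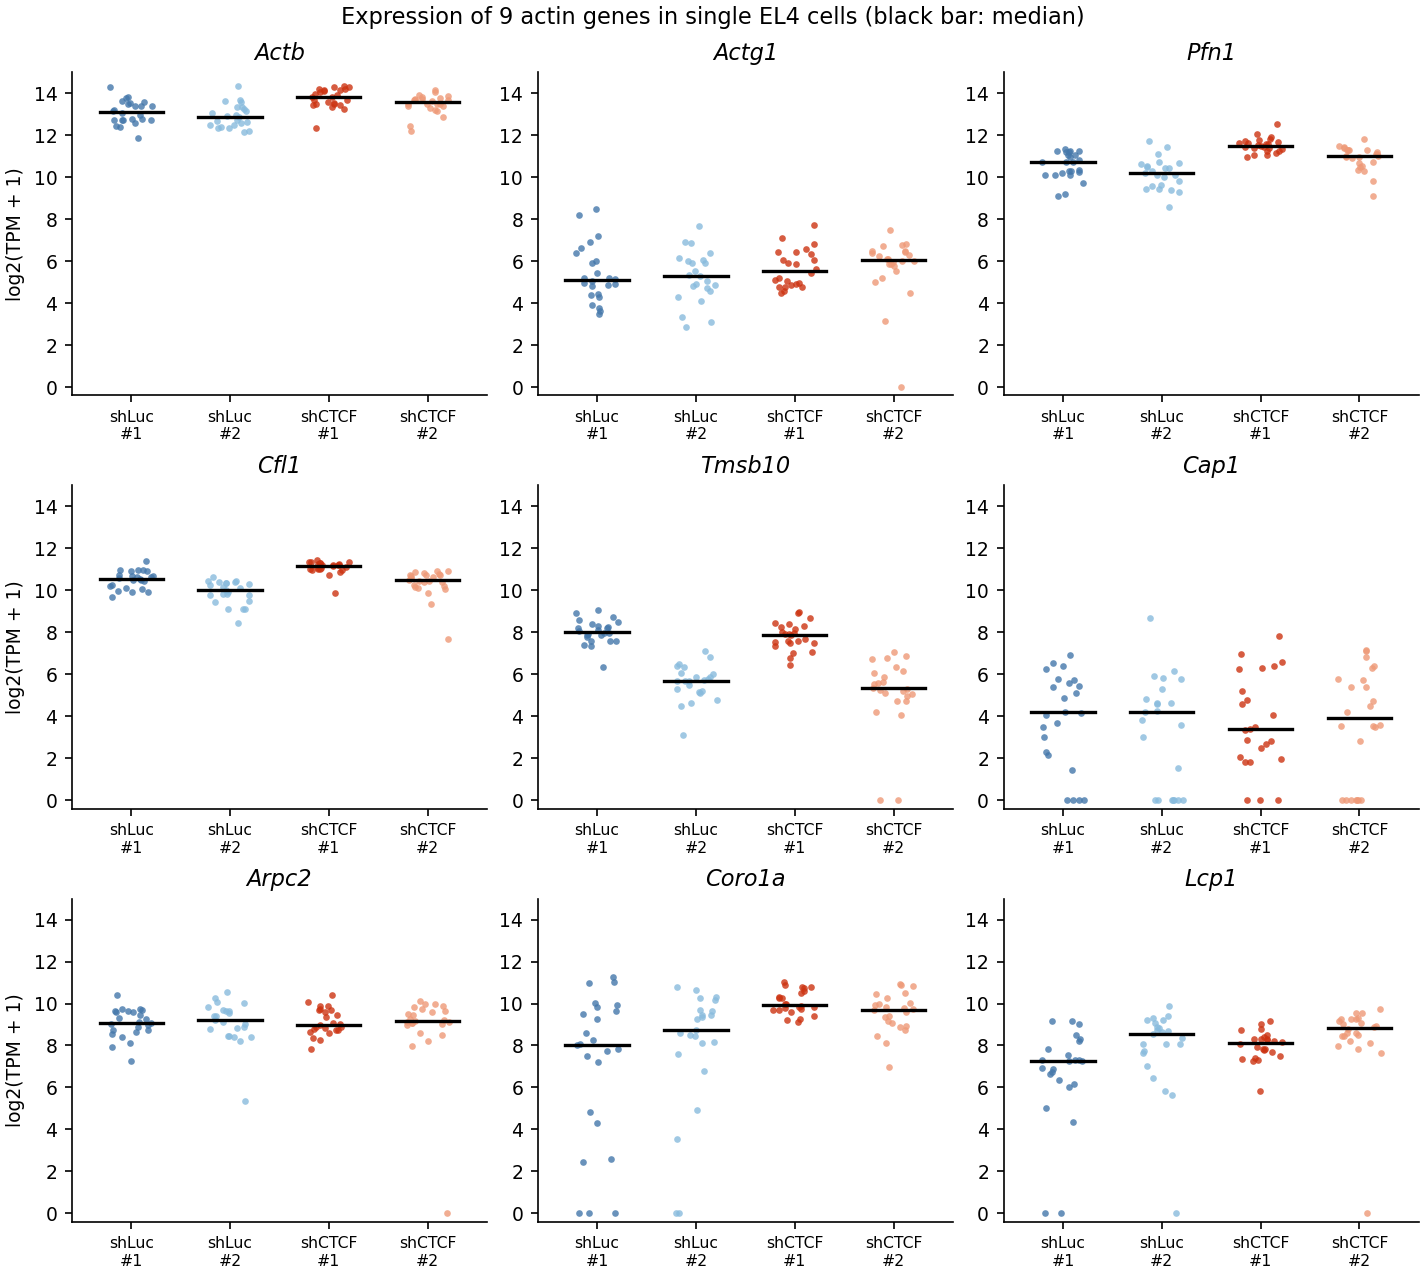
Level of each of the 9 detected genes as log2(TPM + 1) on the y axis, with 1 point per cell and a black bar at the median of each culture. The points of Coro1a reach down to 0 in the shLuc cultures and stay together in the shCTCF cultures, and those of Tmsb10 sit lower in both cultures of experiment 2.

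Pfn1 was higher in both CTCF-KD cultures, and since this chose the gene, its values are a description. The lowest, median and highest cells were at 541, 1694 and 2617 TPM in shLuc #1 and at 1977, 2896 and 5869 TPM in shCTCF #1. In experiment 2 they were at 386, 1184 and 3402 TPM in shLuc #2 and at 553, 2047 and 3605 TPM in the culture labelled shCTCF #2. In experiment 1, 17 of 24 CTCF-KD cells lay above the highest WT cell, whereas in experiment 2 only 1 of 24 did, and the cells of the cultures overlapped. The culture mean was 1.86 times that of WT in experiment 1 (3040 ± 815 against 1635 ± 638 TPM, SD over cells) and 1.56 times in experiment 2 (2040 ± 686 against 1309 ± 710 TPM). The log2 change over the 4 cultures was 0.77 ± 0.33 (SE).

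Actb, the filament subunit itself, showed the same order at a higher level. The study displayed it among the genes that differed most, so its values too are a description. Its lowest, median and highest cells were at 3751, 8701 and 20092 TPM in shLuc #1 and at 5147, 14552 and 20542 TPM in shCTCF #1. In experiment 2 they were at 4615, 7379 and 21002 TPM in shLuc #2 and at 4780, 12226 and 18098 TPM in the culture labelled shCTCF #2. The ranges of single cells overlapped widely, but the medians were apart: 23 and 22 of 24 CTCF-KD cells lay above the WT median of their experiment. The culture means were 1.55 and 1.43 times those of WT, a log2 change of 0.57 ± 0.33 (SE).

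Cfl1 and Lcp1 were higher in CTCF-KD within each experiment, but the difference did not exceed the spread between cultures. Cfl1 had 823, 1509 and 2723 TPM (lowest, median, highest cell) in shLuc #1 and 941, 2318 and 2828 TPM in shCTCF #1. It had 342, 1032 and 1568 TPM in shLuc #2 and 203, 1419 and 1953 TPM in the culture labelled shCTCF #2, so the latter lay below shLuc #1. The log2 change of Cfl1 was 0.51 ± 0.37 (SE, limma, Benjamini-Hochberg adjusted p = 0.788). Lcp1 had culture means of 189 ± 170 and 365 ± 236 TPM (SD over cells) in WT and 281 ± 120 and 455 ± 200 TPM in CTCF-KD. Its log2 change was 0.44 ± 0.44 (SE, limma adjusted p = 0.849).

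In the fit over the 4 cultures Coro1a had the largest log2 change of the 9, and the culture means of the conditions did not overlap. The culture means were 566 ± 704 and 600 ± 516 TPM (SD over cells) in WT and 1141 ± 451 and 899 ± 503 TPM in CTCF-KD, which is 2.02 times WT in experiment 1 and 1.50 times in experiment 2. The log2 change was 0.80 ± 0.29 (SE), with a 95% interval from 0.10 to 1.50, and limma gave an adjusted p of 0.615 over 11980 genes. It therefore failed the correction.

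Arpc2, Cap1, Actg1 and Tmsb10 showed no difference between the conditions beyond the spread between cultures. Arpc2 means were 591 ± 262 and 652 ± 340 TPM (SD over cells) in WT and 619 ± 283 and 629 ± 267 TPM in CTCF-KD, with a 95% interval of the log2 change from -0.66 to 0.68. Cap1 means lay between 31.6 and 37 TPM in all 4 cultures, with an interval from -1.16 to 1.25. Actg1 means were 67.3 ± 86.5 and 51.3 ± 45.2 TPM in WT and 60.5 ± 44.6 and 67.9 ± 37.7 TPM in CTCF-KD, with an interval from -0.90 to 1.14. For Tmsb10 the interval was widest, from -2.46 to 2.17, and its cultures parted by experiment. With limma the adjusted p-values of these 4 genes lay between 0.968 and 0.999.

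In all, 5 of the 9 detected genes were higher in CTCF-KD in both experiments (Pfn1, Actb, Coro1a, Cfl1 and Lcp1), 1 was lower in both (Tmsb10) and 3 had opposite signs (Actg1, Arpc2 and Cap1). Of all 11980 genes tested, 30.1% were higher in both experiments and 26.7% lower in both. For 3 genes, Pfn1, Actb and Coro1a, both CTCF-KD cultures lay above both WT cultures, against 19.9% of all genes. Pfn1 was chosen for this pattern, so nothing is read from these shares. The median log2 change was 0.44 over the 9 genes and 0.04 over all genes. The 9 include Pfn1 and Actb, so nothing is read from this difference either. limma called 0 of the 11980 genes at an adjusted p under 0.05 and 912 at an unadjusted p under 0.05. Of the 7 genes other than Pfn1 and Actb, 1 had an unadjusted p under 0.05, namely Coro1a. With the experiment as a replicate block, the adjusted p was 0.245 for Coro1a, 0.270 for Cfl1 and 0.421 for Lcp1, and again 0 genes were called. More genes were detected per cell in the CTCF-KD cultures. On the scale of the mean over cells of log2(TPM + 1), removal of a slope on genes detected common to the cultures moved the log2 change of Coro1a from 2.32 to 1.99, that of Lcp1 from 0.95 to 0.23 and that of Cfl1 from 0.52 to 0.28. That of Pfn1 went from 0.85 to 0.84 and that of Actb from 0.62 to 0.60. For the other 4 it moved from 0.37 to 0.05 (Actg1), from -0.34 to -0.67 (Tmsb10), from -0.07 to -0.52 (Arpc2) and from 0.03 to -0.74 (Cap1). How far the number of genes detected accounts for the differences was not tested further.

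**Figure D2:**
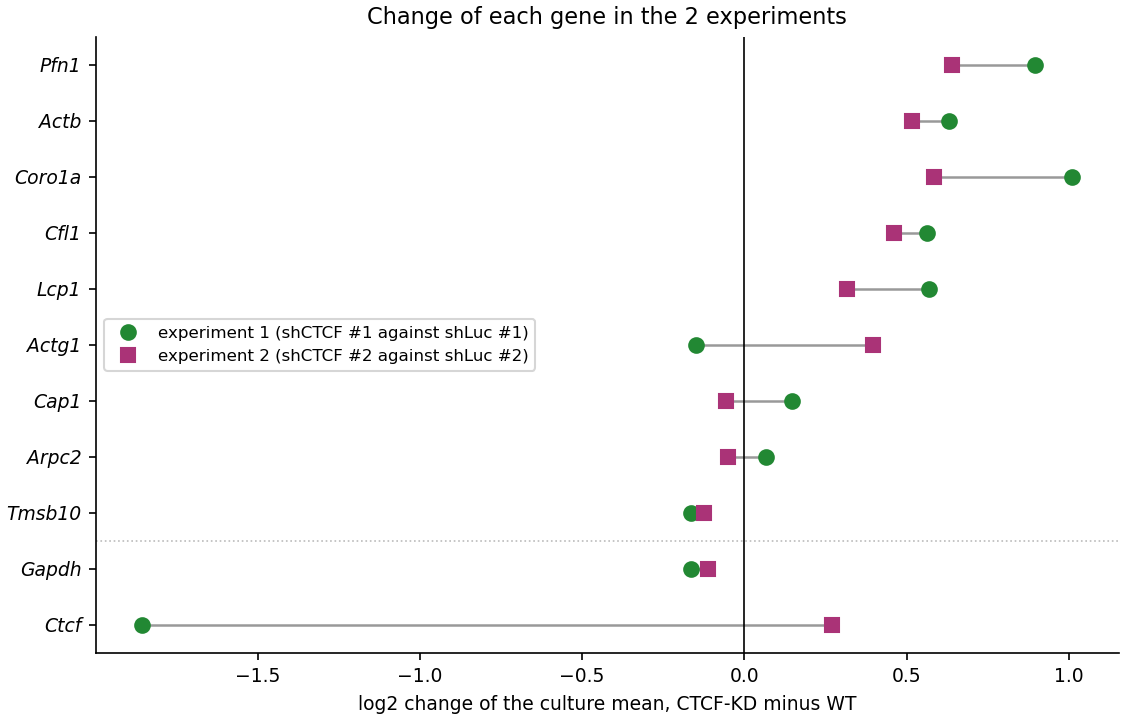
The log2 change of the culture mean, CTCF-KD minus WT, on the x axis for each gene, with a circle for experiment 1 and a square for experiment 2. Pfn1, Actb, Coro1a, Cfl1 and Lcp1 lie to the right of 0 in both experiments, Gapdh, the study's reference gene, is at -0.16 and -0.11, and Ctcf is at -1.85 in experiment 1 and 0.27 in experiment 2.

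The 10 genes together, with Tmsb4x counted at its listed 0, took 1.43% ± 0.46 (SD over cells) of all TPM in shLuc #1 and 1.25% ± 0.48 in shLuc #2. They took 2.23% ± 0.45 in shCTCF #1 and 1.76% ± 0.42 in the culture labelled shCTCF #2. Actb made up 65.6% to 68.2% of the sum in each culture. The sum holds Pfn1, which was chosen for being higher, and Actb, so it is a description. The Actb mean was 140 and 163 times the Actg1 mean in WT and 241 and 176 times in CTCF-KD, but the order did not hold from cell to cell. The median log2 ratio over the cells with both genes was 7.81 and 7.57 in WT and 8.34 and 7.46 in CTCF-KD, so the conditions overlapped and experiment 2 turned direction. Arpc2 came to 6.27% and 7.79% of the Actb mean in WT and to 4.24% and 5.25% in CTCF-KD. The Arpc2 means were alike, so this ratio restates the Actb values. The log2 ratios of single cells overlapped, at -5.47 to -3.14 in shLuc #1 and -6.21 to -3.24 in shCTCF #1. In experiment 2 they were at -7.38 to -2.43 in shLuc #2 and -5.88 to -3.23 in the culture labelled shCTCF #2. For the ratio of Cfl1 to Actb the cultures fell by experiment: 16.1% and 15.3% in shLuc #1 and shCTCF #1, and 12.2% and 11.7% in shLuc #2 and the culture labelled shCTCF #2. With 2 cultures against 2, no exact permutation test of such a ratio can reach a p below 0.333, and none was made.

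A difference that passed the test lay in how evenly Coro1a was expressed from cell to cell. In WT cells Coro1a ranged from 0 to 2422 TPM in shLuc #1 and from 0 to 1746 TPM in shLuc #2, with medians of 262 and 424 TPM. In CTCF-KD cells it ranged from 551 to 2089 TPM in shCTCF #1 and from 126 to 1938 TPM in the culture labelled shCTCF #2, with medians of 978 and 835 TPM. The highest cells of the 4 cultures were alike, and the low cells were those of WT. Below 100 TPM, a limit set after the values were seen, lay 7 of 24 cells in shLuc #1 (29.2%, exact Clopper-Pearson 95% interval 12.6% to 51.1%) and 4 of 23 in shLuc #2 (17.4%, 4.95% to 38.8%). In each CTCF-KD culture it was 0 of 24 cells, which allows a share of up to 12.5% by a limit of 3 cells and of up to 14.2% by the exact Clopper-Pearson interval. These intervals cover counting error over cells only. In shLuc #1 the low cells had a median of 222389 reads and 4634 genes against 270953 and 4862 in the other cells. In shLuc #2 these were 241179 and 4624.5 against 229366 and 4635. Why the low cells were low was not tested. In shLuc #1 their median Actb was 6843 TPM against 10594 TPM in the other cells, their median Pfn1 1235 against 1698 TPM and their median Lcp1 157 against 151 TPM. In shLuc #2 these were 7587 against 6778 TPM, 1407 against 1082 TPM and 123 against 417 TPM, so Actb and Pfn1 were lower in the low cells of shLuc #1 and higher in those of shLuc #2. After thinning every cell to 80000 reads, which left out 1 shallower cell of the culture labelled shCTCF #2, the counts below 100 TPM were again 7, 4, 0 and 0. The cell left out was the lowest of its culture, at 126 TPM from 4 reads. Its place above 100 TPM is uncertain, and the thinned counts do not cover it.

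The coefficient of variation (CV, the SD of log2(TPM + 1) in a culture divided by its mean) put this in numbers. For Coro1a it was 0.514 and 0.383 in WT and 0.0559 and 0.0974 in CTCF-KD, a change of -0.37 ± 0.06 (SE, limma adjusted p = 0.0359). Coro1a was the only 1 of the 7 genes tested whose CV was called, against 4.14% of all 7823 genes called lower and 0.0639% called higher. The mean log2(TPM + 1) of Coro1a was 7.48 in the pooled WT cells and 9.81 in the pooled CTCF-KD cells. The running median CV over genes of like mean was 0.280 in WT and 0.0857 in CTCF-KD, against pooled CVs of 0.447 and 0.0816 for Coro1a, so it lay above genes of like mean in WT and near them in CTCF-KD. The SD alone fell by 2.58 on the log2 scale (limma adjusted p = 0.0411, against 0.625% of genes called lower in SD). With the replicate block the limma adjusted p for the CV was 2.0e-06, in a fit that called 1557 of 7823 genes lower and 24 higher. The call was lost without shCTCF #1 (adjusted p = 0.285), without the culture labelled shCTCF #2 (0.232), with cells of at least 4000 genes only (0.0569), and at a pseudocount of 0.1 (0.701) or 10 (0.164). Lower CV in CTCF-KD was general: 81.5% of 7843 genes had a lower CV when the cultures of a condition were pooled. Under the study's rule, by which the pooled CV difference must lie more than 1 SD from the mean difference, 11.3% of genes decreased, 7.68% increased, and 0 of the 9 genes did either.

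For Lcp1, the other leukocyte-specific gene, the CV was 0.356 and 0.260 in WT and 0.0874 and 0.223 in CTCF-KD, a change of -0.15 ± 0.06 (SE, limma adjusted p = 0.157). The abundant genes varied little in any culture, with CVs of 0.0330 to 0.0429 for Actb, 0.0298 to 0.0721 for Pfn1 and 0.0279 to 0.0657 for Cfl1. Cap1, the least abundant, had the highest CVs, from 0.588 to 0.781. The 5 tested genes other than Coro1a and Lcp1 had limma adjusted p-values between 0.405 and 0.980 for the CV. A single shallow cell weighed on the culture labelled shCTCF #2: with 41591 reads and 3150 genes, it had 0 TPM for Actg1, Tmsb10, Lcp1 and Arpc2.

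**Figure D3:**
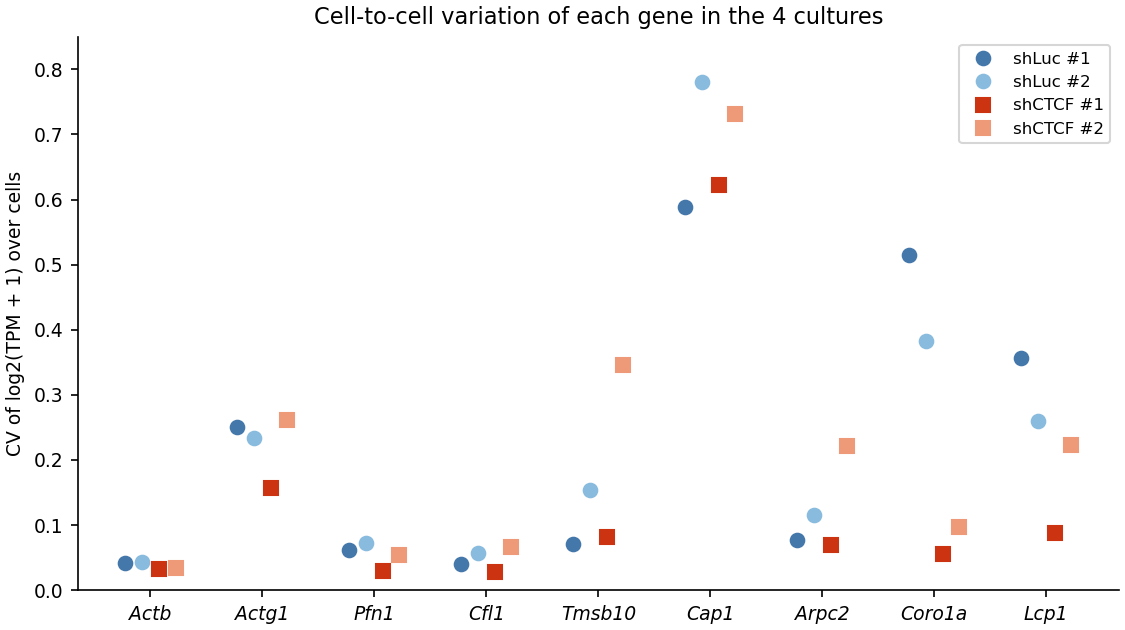
CV of log2(TPM + 1) over cells on the y axis for each gene, with circles for the shLuc cultures and squares for the shCTCF cultures. Coro1a is at 0.514 and 0.383 in the shLuc cultures and at 0.0559 and 0.0974 in the shCTCF cultures, while Actb, Pfn1 and Cfl1 stay below 0.08 in all 4.

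For Tmsb10, a reserve protein for actin monomers, the cultures parted by experiment and not by condition. Its lowest, median and highest cells were at 81.5, 260 and 531 TPM in shLuc #1 and at 86.8, 236 and 504 TPM in shCTCF #1. In experiment 2 they were at 7.70, 50.2 and 138 TPM in shLuc #2 and at 0, 39.4 and 134 TPM in the culture labelled shCTCF #2. Of the cells of experiment 2, 21 of 23 and 20 of 24 lay below 100 TPM, against 1 of 24 in each culture of experiment 1. In the fit with the replicate block the experiment term, experiment 2 minus experiment 1, was -2.29 ± 0.26 (SE, limma adjusted p = 0.0919). This was the statistic at rank 15 from the lowest of 11980 genes, of which 0.00835% were called lower in experiment 2. Restricted to cells of at least 4000 genes the adjusted p was 0.0268, and on the mean log scale 0.0203, while the other 3 settings left it above 0.05. The experiment is the numbered pair of cultures, so its circuits, its cultures and any difference in hairpin cannot be told apart. The tests of the experiment term were chosen after the data were seen.

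Cfl1 was lower and Lcp1 higher in experiment 2 in both conditions, with experiment terms of -0.62 ± 0.13 (SE, limma adjusted p = 0.210) and 0.82 ± 0.20 (adjusted p = 0.233). Neither passed. Of all genes, 13.5% had both cultures of experiment 1 above both of experiment 2 and 25.6% had them below.

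Within a culture, cells rich in one of the abundant genes tended to be rich in the others. Pearson correlations between log2(TPM + 1) values across the cells within each culture were computed for 36 pairs, as a description, since the cells of a culture share a library preparation and the values depend on depth. The mean r over the 4 cultures was highest for Actb and Cfl1 (0.486), Pfn1 and Cfl1 (0.471) and Pfn1 and Actb (0.448). Without the shallow cell these were 0.474, 0.437 and 0.415, and each was positive in all 4 cultures. For Pfn1 and Cfl1 the r was 0.609 and 0.178 in WT and 0.267 and 0.696 in CTCF-KD without that cell. The median of the 36 pairs was 0.205 with the shallow cell and 0.108 without it. Coro1a followed Actb with r of 0.450, 0.263 and 0.398 in the 3 other cultures but 0.00885 in the culture labelled shCTCF #2 without that cell. Cap1 tracked none of Actb, Pfn1 and Actg1, with mean r between -0.05 and -0.02. With Cfl1 its mean r was 0.201, or 0.223 and positive in all 4 cultures without the shallow cell.

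Across 1778 genes with a mean log2(TPM + 1) above 5, those most like Pfn1 outside the 10 included Rac2, a small GTPase of blood cells (mean r of 0.470 over the 4 cultures), and Oaz1, an inhibitor of polyamine synthesis (0.450). Without the shallow cell these were 0.441 and 0.354. The median gene had a mean r of 0.0420. Among the other members Cfl1 and Actb stood highest, at the values given before.

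To see the rest of the machinery, 149 other actin genes were sorted by role into 13 lists, of which 126 genes could be tested. limma called 0 of the 126. An unadjusted p under 0.05 was reached by 0 in the higher direction, against 4.79% of all genes. In the lower direction 3 reached it (Ssh3, Nckap1l and Gsn), against 2.82%. Ssh3 was detected in only 4 of 95 cells, with means of 8.57 and 9.13 TPM in WT and 0 in CTCF-KD. In both experiments 28 of the 126 were higher and 40 lower in CTCF-KD, against 30.1% and 26.7% of all genes, and 58 had no common direction. Their median log2 change was 0.02.

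Among genes of at least 10 TPM with the same direction in both experiments, the largest change of each list was taken, and none passed the adjusted test. In the Arp2/3 complex, where 2 of 8 tested subunits were higher in both experiments and 3 lower, this was Arpc1b, at 352 and 236 TPM in WT and 202 and 189 TPM in CTCF-KD (log2 change -0.56 ± 0.34, SE). Among 16 activators of the WASP and WAVE type, of which 3 were higher in both experiments and 6 lower, it was Nckap1l, a WAVE complex subunit of blood cells, at 114 and 168 TPM in WT and 64 and 44.9 TPM in CTCF-KD. Its log2 change was -1.35 ± 0.42 (SE, limma adjusted p = 0.595). Both Arpc1b and Nckap1l had lower means in each CTCF-KD culture than in each WT culture, as had 16.9% of all genes. Both were picked for the size and common direction of their change, so nothing is read from this order.

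Gelsolin (Gsn), which severs and caps filaments, led the 10 capping and severing genes, of which 5 were lower in both experiments and 1 higher. Its means were 609 and 856 TPM in WT and 429 and 269 TPM in CTCF-KD, a log2 change of -1.09 ± 0.36 (SE, limma adjusted p = 0.610). Among the 4 other coronins tested, of which 2 were higher in both experiments and 1 lower, it was Coro1b (-0.61 ± 0.31, SE), opposite in sign to Coro1a. Among 12 genes of filament disassembly, 4 were higher in both experiments and 5 lower, led by Pdxp, the phosphatase chronophin (-1.15 ± 0.54, SE). Fmnl3, a formin, had -0.90 ± 0.84 among 10 formins and Ena/VASP genes, of which 2 were higher in both and 5 lower. The means of Fmnl3 and Pdxp rested on few cells, as they were detected in 52 and 47 of 95.

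In the higher direction, Tagln2, an actin-binding transgelin, led the bundling and crosslinking genes at 739 and 793 TPM in WT and 1086 and 1177 TPM in CTCF-KD (log2 change 0.56 ± 0.28, SE, limma adjusted p = 0.696). Of these 13 genes 4 were higher in both experiments and 0 lower. Myo1g, a myosin of blood cells, led the 14 myosins and tropomyosins, of which 2 were higher and 2 lower (1.30 ± 0.66, SE). In 3 further lists the named genes were Slk (-0.78 ± 0.73) among 7 membrane linkers (3 higher in both experiments and 1 lower), Elk3 (-0.68 ± 0.67) among 5 genes around SRF (1 higher and 2 lower), and Twf1 (-0.11 ± 0.29) among 4 monomer-binding genes (1 higher and 1 lower), each with the SE. Among the 3 other actins tested no gene met the rule.

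**Figure D4:**
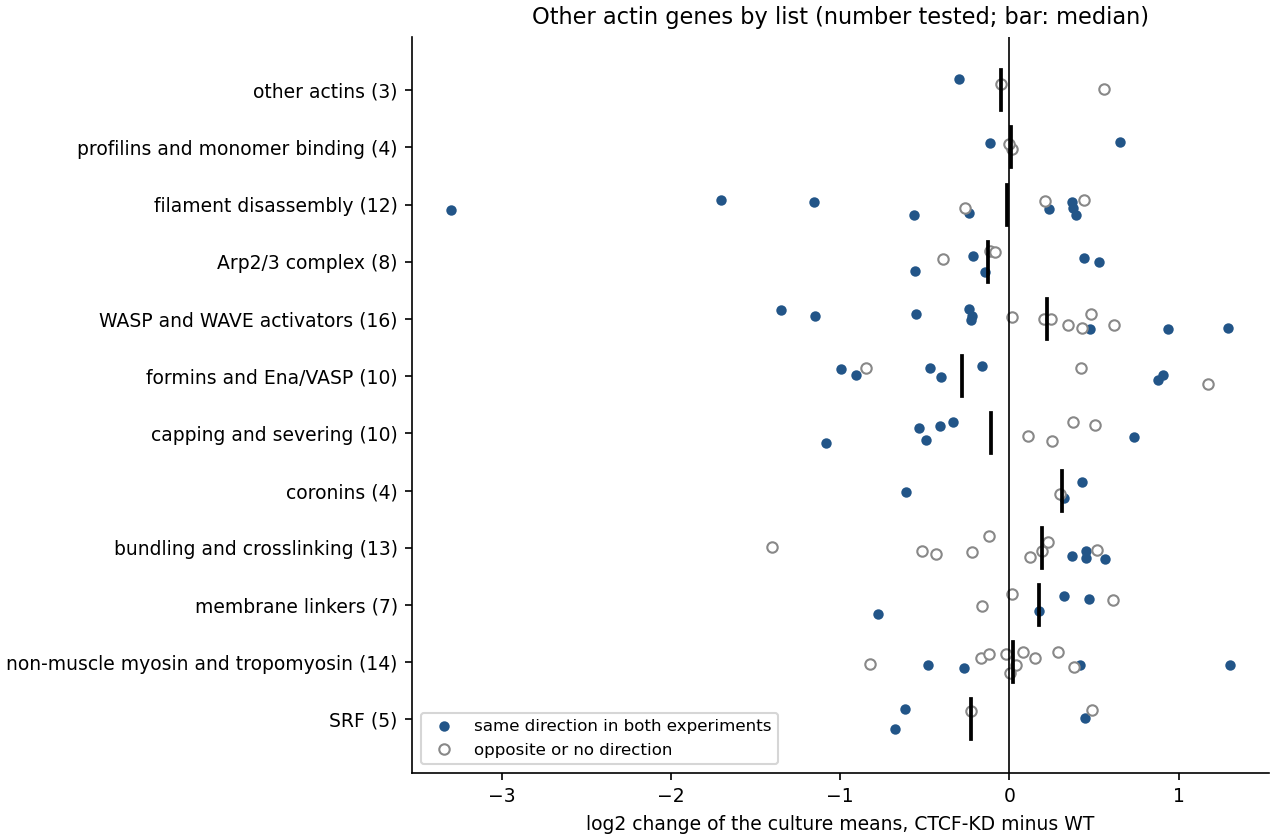
The log2 change of the culture means, CTCF-KD minus WT, on the x axis for 106 of the other actin genes tested, by list (12 lists), with filled points for genes of 1 direction in both experiments, open points for the others and a black bar at the median of the list. The list medians lie between -0.28 and 0.31, on either side of 0.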

How the data were processed

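Single-cell RNA-seq of 96 EL4 cells was read from 1 table of TPM. The authors aligned the reads to GRCm38 with STAR, used unique alignments, counted per gene with HTSeq and deposited TPM values, which are scaled by gene length and by each cell's total. A gene that takes more of the total therefore lowers the others. Cells under 3000 genes were left out (1 cell, with 81 genes). Whole reads were recovered from the TPM steps (100% of 504524 values were whole within 0.001), for depth, thinning and RPM only. The shLuc cultures held 6192121 (#1) and 5493040 (#2) reads and the shCTCF cultures 5606532 (#1) and 3232422 (#2). No molecular identifiers are described. The Clopper-Pearson intervals cover counting error over cells only, and the limma intervals rest on the spread between cultures. In limma the spread of each gene is drawn toward that of genes of like level, so an interval is not that gene's own spread alone.

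The culture was the replicate, 2 per condition. limma 3.58.1 (R 4.3.3, eBayes with trend, Benjamini-Hochberg, called at 0.05) was fitted on log2(mean TPM + 1) of 11980 genes that exceeded 1 on the log2(TPM + 1) scale in 2 or more cells, and on the CV of genes with a mean above 1. Fold changes on this scale are understated for low genes. Cultures were also simulated by drawing cells from the pooled WT cells, so they lacked the spread between real cultures. With 200 of 10867 genes changed, limma called 0 genes at 4-fold and 42, all of them changed, at 8-fold. Its sensitivity with the real spread was not tested. The paper's methods tie culture numbers to experiments, so the numbers pair the cultures. Deviations from the condition means correlated at 0.175 over 11980 genes.

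The 10 genes and the wider lists were chosen with earlier results of these data known. Genes named are the 10, Ctcf and Gapdh, in each wider list the largest change among genes of at least 10 TPM with 1 direction in both experiments, and the 3 genes most correlated with Pfn1, of which 1, with 1 marker gene and 1 wider list, is not reported here. Gapdh, the reference gene, had a log2 change of -0.14 ± 0.28 (SE, limma adjusted p = 0.939). Ssh3 was named after its values were seen. Sequences and positions are from GENCODE M21 and RefSeq. Alternatives covered the scale, pseudocount, filters, scaling, pairing, depth and leaving out each culture.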

Additional observations from a re-analysis of the deposited data

Results flagged for a closer look

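For 3 of the 9 detected genes the culture means differed in opposite directions in the 2 experiments, and so did those of Ctcf. The log2 change, CTCF-KD minus WT, of Actg1 was -0.15 in experiment 1 and 0.40 in experiment 2. That of Arpc2 was 0.07 and -0.05, and that of Cap1 0.15 and -0.06. That of Ctcf was -1.85 and 0.27, so the mean mRNA level of the target was lower in the knockdown culture of experiment 1 and not lower in that of experiment 2. Each experiment had 1 culture per condition, so these differences between experiments were not tested.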

How the results depend on the processing

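Pfn1 and Actb kept a positive log2 change under all 17 alternatives, from 0.48 to 1.05 and from 0.43 to 0.74, as did Coro1a (0.62 to 2.32, adjusted p 0.0689 to 0.839) and Cfl1 (0.17 to 0.85, 0.270 to 0.946). Leaving out 1 culture at a time gave -0.068 to 0.32 for Actg1, -1.30 to 1.01 for Tmsb10, -0.030 to 0.92 for Lcp1, -0.063 to 0.079 for Arpc2 and -0.065 to 0.16 for Cap1, so their signs depend on single cultures. Arpc2 also turned negative with the mean of logs (-0.070), the median (-0.059), genes detected removed (-0.52) and scaling without the 100 highest genes (-0.034), as did Cap1 with the median (-0.55), cells of 4000 genes (-0.10), genes detected removed (-0.74) and that scaling (-0.0018). The last 2, RPM, the thinned CV and all tests of experiment 2 against experiment 1 were chosen after seeing the data. Over all genes, the mean of logs called 46 in place of 0 (44 higher and 2 lower, with a median shift of all genes of 0.23). None of the 7 tested members (those other than Pfn1 and Actb) or of the wider lists was among them. The CV calls, 329 in the main fit, came to 0 at a pseudocount of 0.1, 0 at 10, 0 with cells of 4000 genes, 52 for the SD, 1581 with the replicate block, and 0 to 659 without 1 culture (0 without either CTCF-KD culture, 659 without shLuc #1 and 182 without shLuc #2). The CV change of Coro1a was negative throughout, at -0.31 to -0.44 without 1 culture (adjusted p 0.0257 to 0.285). That of Lcp1 passed only after thinning (adjusted p = 0.0480). The pairing with the replicate block changed no other call for the genes named. The summed level was 0.40 to 0.74 higher on the log2 scale. The log2 ratio of Actb to Actg1 differed by 0.12 with medians over cells, against 0.45 with means. The cause of these moves was not tested. Depth limits Cap1 and Actg1, with 989 and 1253 reads in all cells, and Tmsb10 in experiment 2, with 129 and 74 reads per culture.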
